A study of Mus musculus with 24 samples.

Results

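Neurod6 and 8 genes around it on mouse chromosome 6 were described across the hippocampi of 24 female mice. The 9 genes were Neurod6, RP23-287D23.1, RP23-132J21.5, Ccdc129, Adcyap1r1, Fam188b, Pde1c, Crhr2 and Aqp1, out of 46983 genes in the count table. They were chosen by position, as expressed genes starting within 1 Mb of Neurod6, with genotype differences of these same samples already known. The genotype values of these genes are therefore given as descriptions, and counts of them called for genotype stand beside the share of all genes with nothing read from them. The comparisons of early life stress (ELS), which the rule did not use, were tested. All 9 genes were among the 16209 that passed a filter on low counts, which asked that some group have 10 or more reads in each of its mice. RP23-287D23.1 passed it only through the groups in which it was high, and Aqp1 only through both control-reared groups.

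The mice formed 4 groups of 6. In Fkbp5lox/lox mice both copies of Fkbp5 are flanked by loxP sites and no Cre is present. Fkbp5Nex mice carry the same alleles and Cre recombinase placed in the Nex locus, whose current symbol is Neurod6, which deletes Fkbp5, the gene of the stress-related co-chaperone FKBP51, from glutamatergic neurons of the forebrain. Cre-positive males were bred to Cre-negative females, so offspring carried at most 1 copy of the insertion. Each genotype was reared under control conditions or under ELS, a limited supply of bedding and nesting material in the first days of life, and adult brains were sampled as punches of dorsal and ventral hippocampus. The strain was labelled C57BL/6. Which stretch of Neurod6 the insertion replaces is not given in the sources used here, and no group carried the insertion without floxed Fkbp5. The insertion at Neurod6 and the loss of Fkbp5 cannot be told apart in any genotype difference below.

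Neurod6, also called Nex, is a basic helix-loop-helix transcription factor of maturing and adult glutamatergic neurons of the forebrain, and its promoter is widely used to drive Cre there. Factors of this family bind the E-box, a short sequence with the letters CANNTG. The neighbourhood also holds a pair of receptor genes for stress-related peptides, Adcyap1r1, which encodes the PAC1 receptor for the neuropeptide PACAP, and Crhr2, which encodes a receptor for urocortins and corticotropin-releasing hormone. Aqp1 encodes a water channel that is abundant in choroid plexus epithelium, and Pde1c a phosphodiesterase that is activated by calcium and calmodulin and degrades cyclic nucleotides. Fam188b, now Mindy4, belongs to a family of deubiquitinases. Ccdc129, now Itprid1, encodes a protein with a domain that interacts with inositol trisphosphate receptors. RP23-287D23.1, now Gm3279, and RP23-132J21.5, now 6430584L05Rik, are long intergenic non-coding RNAs.

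By GENCODE vM21 (GRCm38), Neurod6 lies at chr6:55677822-55681263 on the minus strand, in 2 exon blocks with a coding length of 1011 bases in 1 block. RP23-287D23.1 lies at chr6:55684571-55694574 on the plus strand, in 3 exon blocks. The transcripts run away from each other, their starts are 3308 bases apart, and neither overlaps another annotated gene. Crhr2 starts at -548.2 kb from the start of Neurod6, where a negative value is toward smaller coordinates, Fam188b at -477.9 kb, Aqp1 at -344.8 kb, RP23-132J21.5 at -284.4 kb and Adcyap1r1 at -229.3 kb. On the other side, Ccdc129 starts at 155.6 kb and Pde1c at 887.8 kb. Fam188b overlaps 2 annotated genes on the opposite strand and Pde1c overlaps 1 on its own strand. Whether the counting used strand is not given in the sources used here, so the values of Fam188b and Pde1c may hold reads of those genes.

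Of 29 annotated genes of the table that start within 1 Mb, 14 passed the filter, so 5 tested neighbours (Mturn, Znrf2, Nod1, Ggct and Gars) were not among the 9 genes. They lay between -999.6 kb (Mturn) and -643.3 kb (Gars), at mean levels of 7.18 CPM (Nod1) to 251.2 CPM (Mturn). CPM is the count of a gene scaled to a common library size, with edgeR's TMM factors. Among the 9 genes the lowest mean level was that of RP23-287D23.1 in Fkbp5lox/lox mice, at 0.335 CPM, and that of Ccdc129 in Fkbp5Nex mice, at 1.33 CPM, where RP23-287D23.1 was at 2.46 CPM. The highest neighbour that did not pass the filter was Inmt, at 0.620 CPM in Fkbp5lox/lox and 0.482 CPM in Fkbp5Nex mice, so in Fkbp5lox/lox mice RP23-287D23.1 was below it.

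The promoter windows of the divergent pair are shown because both genes are adjacent and went opposite ways between the genotypes. Each is the RefSeq window (GRCm38.p6) from 250 bases before to 50 bases after the start, 5′ to 3′ on the strand of its gene, at chr6:55681214-55681513 for Neurod6 and chr6:55684321-55684620 for RP23-287D23.1. Capitals mark E-boxes (CANNTG, read on both strands, which is the same search since the motif is its own reverse complement).
Neurod6: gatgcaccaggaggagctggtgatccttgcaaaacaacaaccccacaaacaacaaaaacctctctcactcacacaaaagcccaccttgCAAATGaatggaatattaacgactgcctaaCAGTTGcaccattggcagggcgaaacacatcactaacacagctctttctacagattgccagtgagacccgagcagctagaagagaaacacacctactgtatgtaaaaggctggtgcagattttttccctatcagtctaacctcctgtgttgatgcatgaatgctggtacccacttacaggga
RP23-287D23.1: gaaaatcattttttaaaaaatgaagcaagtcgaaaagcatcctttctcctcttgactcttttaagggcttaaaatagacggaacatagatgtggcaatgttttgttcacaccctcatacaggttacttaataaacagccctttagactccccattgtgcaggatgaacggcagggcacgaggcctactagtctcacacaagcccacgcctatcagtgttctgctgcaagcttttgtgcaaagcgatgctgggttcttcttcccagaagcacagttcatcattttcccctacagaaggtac

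The Neurod6 window held 2 E-boxes and the RP23-287D23.1 window 0. Among 32851 RefSeq promoter windows of this length, 72.3% held at least 1 and 39.6% at least 2. Of the 11 windows that matched the 9 genes, that of Ccdc129 held most, with 6, and that of Adcyap1r1 also held 0. A match is a description of letters and not of binding.

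Library totals lay between 18347283 and 26555623 gene counts (median 21385946.5), and the targeted gene separated the genotypes as labelled. Fkbp5 ranged from 47.6 to 63.3 CPM in the 12 Fkbp5lox/lox mice and from 8.69 to 26.4 CPM in the 12 Fkbp5Nex mice, without overlap. All 9 forebrain glutamatergic markers were tested, and their summed level was similar in range in all groups, from 4353 to 6259 CPM over the 24 mice. The punches differed in their levels of markers of single cell types, pyramidal neurons included. For 9 CA1 pyramidal markers the sum ran from 135.6 to 1257 CPM, and for 11 CA2 and CA3 pyramidal markers from 1169 to 2600 CPM. Summed levels ranged from 27.5 to 4871 CPM for 14 choroid plexus markers and from 102.4 to 508.6 CPM for 12 markers of thalamus. For 12 markers of dentate granule cells, the range was 565 to 1674 CPM in Fkbp5lox/lox and 379.5 to 1200 CPM in Fkbp5Nex mice. In bulk tissue, fewer cells of a type and less RNA per cell cannot be told apart.

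Neurod6 was lower in Fkbp5Nex mice. In Fkbp5lox/lox controls the lowest, median and highest counts were 3473, 5702.5 and 7152 reads, and in Fkbp5lox/lox ELS mice 3740, 5343.5 and 7447. In Fkbp5Nex controls they were 2040, 3164.5 and 4158, and in Fkbp5Nex ELS mice 1060, 3209.5 and 3532. The genotypes overlapped, since 3 Fkbp5lox/lox mice lay within the Fkbp5Nex range, control mouse 44 at 158.4 CPM and ELS mice 8 and 68 at 156.5 and 201.9 CPM, while the highest Fkbp5Nex mouse was at 205.0 CPM, and 5 of 12 Fkbp5Nex mice lay below every Fkbp5lox/lox mouse. All 12 Fkbp5Nex mice were below the Fkbp5lox/lox mean.

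Mean Neurod6 levels were 257.7 ± 59.2 CPM (SD, n = 6) in Fkbp5lox/lox controls, 255.3 ± 75.2 CPM in Fkbp5lox/lox ELS, 155.5 ± 38.8 CPM in Fkbp5Nex controls and 127.7 ± 53.7 CPM in Fkbp5Nex ELS mice. Over both rearing conditions the Fkbp5Nex level was 0.552 of the Fkbp5lox/lox level. In the model of all genes, with 5 surrogate variables for variation beyond the groups, the log2 fold change was -0.90 ± 0.15 (SE). It was -0.72 ± 0.22 in controls and -1.08 ± 0.22 after ELS.

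The neighbour RP23-287D23.1 went the other way. Its counts were 3, 9.5 and 16 reads (lowest, median, highest) in Fkbp5lox/lox controls and 3, 6 and 8 in Fkbp5lox/lox ELS mice, against 28, 39 and 54 in Fkbp5Nex controls and 37, 55.5 and 104 in Fkbp5Nex ELS mice. Every Fkbp5Nex mouse was above every Fkbp5lox/lox mouse. The share of all tested genes that separate the genotypes in this way is not given here. The gene was also chosen with genotype results known, so nothing is read from the separation. These are small counts. The exact Poisson 95% interval of the highest Fkbp5lox/lox count, 16 reads, ran from 9.15 to 26, and that of the lowest Fkbp5Nex count, 28 reads, from 18.6 to 40.5, so these extremes overlapped within counting error.

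In CPM, RP23-287D23.1 was at 0.409 ± 0.177 (SD, n = 6) in Fkbp5lox/lox controls and 0.260 ± 0.0958 in Fkbp5lox/lox ELS mice. It was at 1.96 ± 0.502 in Fkbp5Nex controls and 2.95 ± 1.04 in Fkbp5Nex ELS mice. The log2 fold change between genotypes was 2.87 ± 0.21 (SE) over both conditions, 2.32 ± 0.29 in controls and 3.41 ± 0.31 after ELS. The plot of levels per mouse shows the opposite steps of both genes.

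**Figure D1:**
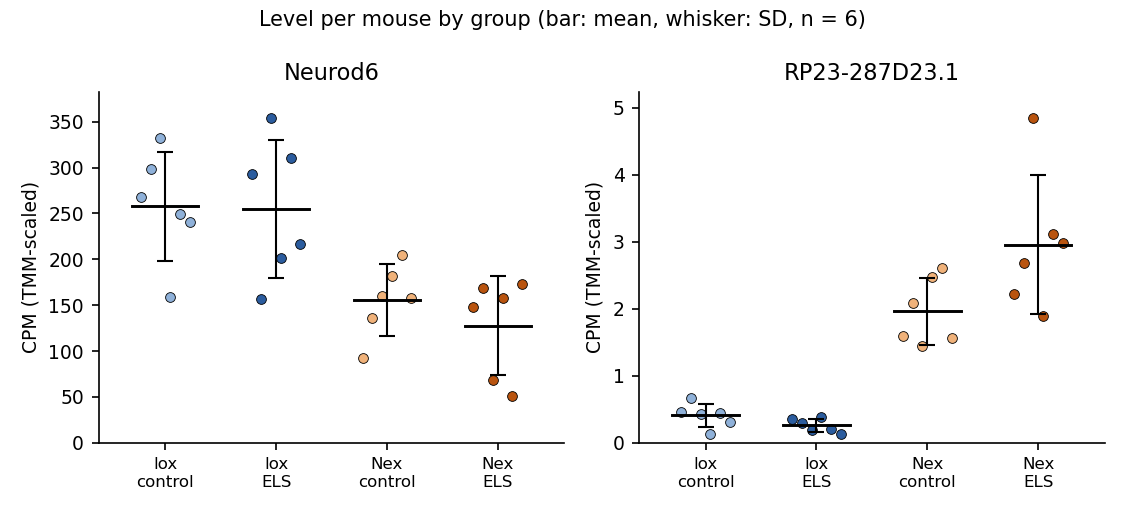
Levels of Neurod6 and RP23-287D23.1 in TMM-scaled CPM (vertical axes, linear from 0) for each of 24 mice by group, with the mean (bar) and SD (whisker) of 6 mice. Neurod6 overlaps between genotypes, with 3 Fkbp5lox/lox mice at or under the highest Fkbp5Nex level of 205.0 CPM, whereas RP23-287D23.1 does not, with at most 0.668 CPM in Fkbp5lox/lox and at least 1.44 CPM in Fkbp5Nex mice. The share of all tested genes without overlap is not given.

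Relative to its neighbour, the non-coding RNA gave between 0.552 and 2.24 reads per 1000 Neurod6 reads in Fkbp5lox/lox mice and between 9.01 and 71.3 in Fkbp5Nex mice. Both highest ratios came from Fkbp5Nex ELS mice, 71.3 in mouse 58 and 60.4 in mouse 62, while the other 4 mice of that group ranged from 12.0 to 17.2. Mice 58 and 62 had the 2 lowest Neurod6 counts of all, 1459 and 1060 reads, and the 2 highest RP23-287D23.1 counts, 104 and 64 reads. Their summed level of CA2 and CA3 pyramidal markers, 2250 and 1863 CPM, lay within the range of the other mice, 1169 to 2600 CPM. Their summed level of 5 erythrocyte markers, 96.7 and 78.8 CPM, gave the 2 highest values of all 24 mice. Across the 24 mice, as deviations from group means, Neurod6 ran against these markers (r = -0.55, rho = -0.50, and r = -0.41 without the 2 farthest mice). The marker sums ranged from 40.3 to 68.2 CPM in Fkbp5lox/lox (median 50.4) and from 38.8 to 96.7 CPM in Fkbp5Nex mice (median 53.6), no marker was at 0 in all mice, and 0 of 5 were called for genotype over both rearing conditions, with all 5 positive and a median log2 difference of 0.17. The part of blood RNA in the Neurod6 difference was not tested. Beyond the group means the genes did not move together over the 24 mice (Pearson r = 0.00, Spearman rho = -0.06), within Fkbp5Nex r was -0.29 and within Fkbp5lox/lox 0.35. After removal of the surrogate variables r was -0.50.

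The ranges of the other 7 genes overlapped between the genotypes. RP23-132J21.5, the second non-coding RNA, was the only one of these 7 with a higher mean in Fkbp5Nex mice, at 2.17 ± 0.692 CPM (SD, n = 12) in Fkbp5lox/lox and 2.81 ± 1.43 CPM in Fkbp5Nex mice, with a log2 fold change of 0.43 ± 0.14 (SE). Counts ran from 24 to 90 and from 21 to 146 reads. The highest value, 6.63 CPM, belonged to mouse 12 of the Fkbp5Nex controls, whose dentate markers, 1200 CPM, were the highest of the Fkbp5Nex mice. Its astrocyte, microglia and endothelial marker sums, 8977, 525.4 and 326.3 CPM, were the highest of all 24 mice, and their part in this value was not tested.

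Of the receptor genes, Adcyap1r1 ranged from 139.9 to 306.2 CPM in Fkbp5lox/lox mice (median 187.2) and from 129.3 to 241.6 CPM in Fkbp5Nex mice (median 160.7). The log2 fold change was -0.16 ± 0.04 (SE) with the surrogate variables and -0.29 without them, and it was -0.06 when mouse 12 and -0.24 when mouse 8 of the Fkbp5lox/lox ELS group was left out. Of the 12 Fkbp5Nex mice, 10 were below the Fkbp5lox/lox mean. Crhr2 ranged from 1.54 to 4.41 CPM (median 2.50) in Fkbp5lox/lox and from 1.13 to 4.48 CPM (median 2.09) in Fkbp5Nex mice, a log2 difference of -0.17 ± 0.17 that turned to 0.55 without mouse 12, to 0.05 without mouse 52 of the Fkbp5Nex controls and to 0.01 without mouse 30 of the Fkbp5lox/lox controls. Leaving out 1 of 6 other mice also moved it by over 1.5 times, between -0.34 (mouse 42 of the Fkbp5Nex controls) and -0.0082 (mouse 28 of the Fkbp5lox/lox controls).

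Aqp1, the water channel, had counts from 3 to 555 reads in Fkbp5lox/lox mice (median 103.5) and from 9 to 292 in Fkbp5Nex mice (median 17.5). Levels in both genotypes thus ran over more than an order of magnitude, and the log2 fold change of -1.21 ± 0.32 (SE) was -0.79 without surrogate variables. It was -0.66 without mouse 8 of the Fkbp5lox/lox ELS group, -0.69 and -0.74 without mouse 12 and mouse 52 of the Fkbp5Nex controls, and -0.80 without mouse 44 of the Fkbp5lox/lox controls. Of 14 choroid plexus markers 7 passed the filter, and the mean of these 7 moved with it. For genotype over both rearing conditions all 7 had negative log2 fold changes, with a median of -1.11. Of them 1 was called (Ttr), beside 0.117% of all tested genes. Without surrogate variables 0 were called, with a median of -0.48, and Ttr was also not called without mouse 8, 12, 44 or 52. The median summed level of all 14 was 836.2 CPM in Fkbp5lox/lox and 110.6 CPM in Fkbp5Nex mice. The ranges were 28.6 to 4871 and 27.5 to 3634 CPM, and no marker of the list was at 0 in all mice. The part of choroid plexus RNA in the Aqp1 difference was not tested.

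Pde1c ranged from 7.25 to 11.4 CPM in Fkbp5lox/lox mice (median 8.51) and from 3.10 to 9.11 CPM in Fkbp5Nex mice (median 7.25). Of the latter, 6 of 12 lay below every Fkbp5lox/lox mouse, and the log2 fold change was -0.42 ± 0.11 (SE). As deviations from group means, Pde1c ran against forebrain glutamatergic markers (r = -0.587, rho = -0.545, and r = -0.529 without the 2 farthest mice). It also ran against dentate granule markers (r = -0.502, rho = -0.612, r = -0.511) and followed those of oligodendrocytes (r = 0.424, rho = 0.423, r = 0.374). The part of these cell types in the Pde1c difference was not tested. Fam188b was the steadiest gene of the locus, from 8.37 to 10.1 CPM in Fkbp5lox/lox and from 7.22 to 9.21 CPM in Fkbp5Nex mice, and its log2 fold change of -0.16 ± 0.05 rested on 12 of 12 Fkbp5Nex mice below the Fkbp5lox/lox mean. Ccdc129 ranged from 0.850 to 2.70 CPM (23 to 58 reads) and from 0.726 to 2.07 CPM (16 to 42 reads), with a log2 fold change of -0.40 ± 0.15 that was -0.16 without mouse 74 of the Fkbp5lox/lox controls and -0.18 without mouse 8 of the Fkbp5lox/lox ELS group.

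In edgeR's quasi-likelihood test at a false discovery rate of 0.02 over all genes, 2 of the 9 genes, Neurod6 and RP23-287D23.1, were called for genotype over both rearing conditions, where 0.117% of all tested genes were called. For genotype under control rearing 1 of 9 was called (RP23-287D23.1), with 0.0494% of all genes, and for genotype after ELS 1 of 9 (RP23-287D23.1), with 0.0123%. Nothing is read from these counts, since the genes were chosen with genotype results known. Of the 5 other tested genes within 1 Mb, 0 were called in each of these comparisons. The largest difference among them was that of Nod1, 0.38 ± 0.10 (SE), while Mturn was at 0.08 ± 0.04 and the other 3 between -0.06 and -0.05. All 9 genes had a median log2 fold change of -0.17, beside -0.00 over all genes tested. With 1 mouse left out, the call of RP23-287D23.1 under control rearing was lost without mouse 12 of the Fkbp5Nex controls, where its log2 fold change was 2.06. Over both conditions the call of Neurod6 was lost in 8 of these 24 fits, without Fkbp5lox/lox mouse 44, 74, 8, 68 or 72 or Fkbp5Nex mouse 12, 32 or 52. It was also lost without surrogate variables and with surrogate variables estimated from raw counts, where its log2 fold change was -0.98.

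**Figure D2:**
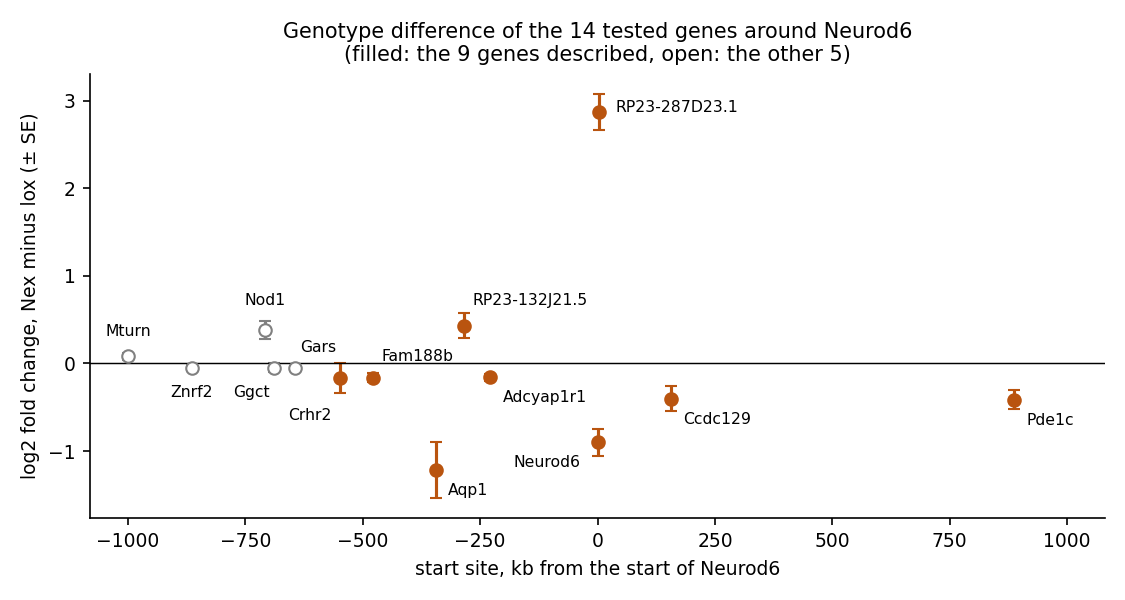
Log2 fold change between genotypes (Fkbp5Nex minus Fkbp5lox/lox, vertical axis, bars show the SE) against the distance of each start site from that of Neurod6 in kb (horizontal axis) for the 14 tested genes within 1 Mb. RP23-287D23.1, the nearest gene at 3.3 kb, stands at 2.87 and Neurod6 itself at -0.90, and the 5 open points between -999.6 and -643.3 kb lie between -0.06 and 0.38.

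Markers of dentate granule cells were compared in the same fit over both rearing conditions. Of 12, 4 were called and all 4 were lower in Fkbp5Nex mice (Prox1, Dsp, Npnt and Fam163b), and all 12 had negative log2 fold changes with a median of -0.46. These calls depended on single mice and on the surrogate variables. Without mouse 12 of the Fkbp5Nex controls 0 of 12 were called, 10 were negative and the median was -0.24. Without mouse 52 of the same group 1 was called (Npnt), and with any other mouse left out 3 to 6. Without surrogate variables 0 were called, with a median of -0.55. Across 24 mice, as deviations from group means, Adcyap1r1 followed these markers (r = 0.89, rho = 0.73, and r = 0.80 without the 2 farthest mice), as did RP23-132J21.5 (r = 0.79, rho = 0.74, r = 0.66), whereas Neurod6 did so weakly in the opposite direction (r = -0.42, rho = -0.27, r = -0.16). RP23-132J21.5 also followed astrocyte (r = 0.74, rho = 0.66, r = 0.50) and microglia markers (r = 0.66, rho = 0.61, r = 0.53) and ran against those of oligodendrocytes (r = -0.742, rho = -0.745, r = -0.639). Adcyap1r1 likewise followed astrocyte (r = 0.64, rho = 0.66, r = 0.52) and ran against oligodendrocyte markers (r = -0.645, rho = -0.599, r = -0.539). Both genes also ran against CA2 and CA3 pyramidal markers, Adcyap1r1 with r = -0.748 (rho = -0.717, r = -0.608) and RP23-132J21.5 with r = -0.605 (rho = -0.482, r = -0.512). With 3 tested ependymal markers r was -0.804 for Adcyap1r1 (rho = -0.831, r = -0.795) and -0.671 for RP23-132J21.5 (rho = -0.677, r = -0.644). The part of these cell types in the genotype differences of Adcyap1r1 and RP23-132J21.5 was not tested. Neurod6 followed CA2 and CA3 pyramidal markers (r = 0.62, rho = 0.58, r = 0.50), whose summed medians were between 1931 and 2061 CPM in all 4 groups. It did not follow CA1 pyramidal markers (r = -0.01, rho = -0.13, r = -0.20), and its relation to forebrain glutamatergic markers was weak (r = 0.14, rho = 0.17, r = 0.26).

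Per kb of exon the levels spanned 2 orders of magnitude. Neurod6 was highest, at 92.6 ± 37.5 CPM per kb (SD, n = 24), followed by Adcyap1r1 at 28.0 ± 6.62. Fam188b (1.83 ± 0.148), Aqp1 (1.73 ± 2.28) and RP23-287D23.1 (1.28 ± 1.16) came next and did not separate, since Fam188b was above Aqp1 in 14 and Aqp1 above RP23-287D23.1 in 11 of 24 mice. RP23-132J21.5 (0.776 ± 0.357), Crhr2 (0.492 ± 0.194), Ccdc129 (0.411 ± 0.133) and Pde1c (0.380 ± 0.0961) were lowest, and the last 3 exchanged places from mouse to mouse. The length joins all annotated exons of a gene, 20067 bases for Pde1c and 1092 to 6601 for the others. The place of Pde1c depends on it, since its mean of 7.63 CPM before division by length was above the 4.55 CPM of Aqp1. The place of RP23-287D23.1 in this order holds for neither genotype, since it was lowest of the 9 in Fkbp5lox/lox mice, at 0.306 ± 0.143 CPM per kb (SD, n = 12), and behind only Neurod6 and Adcyap1r1 in Fkbp5Nex mice, at 2.25 ± 0.854. Over all mice, Neurod6 was above Adcyap1r1 in 23 of 24 and Adcyap1r1 above Fam188b in all 24.

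**Figure D3:**
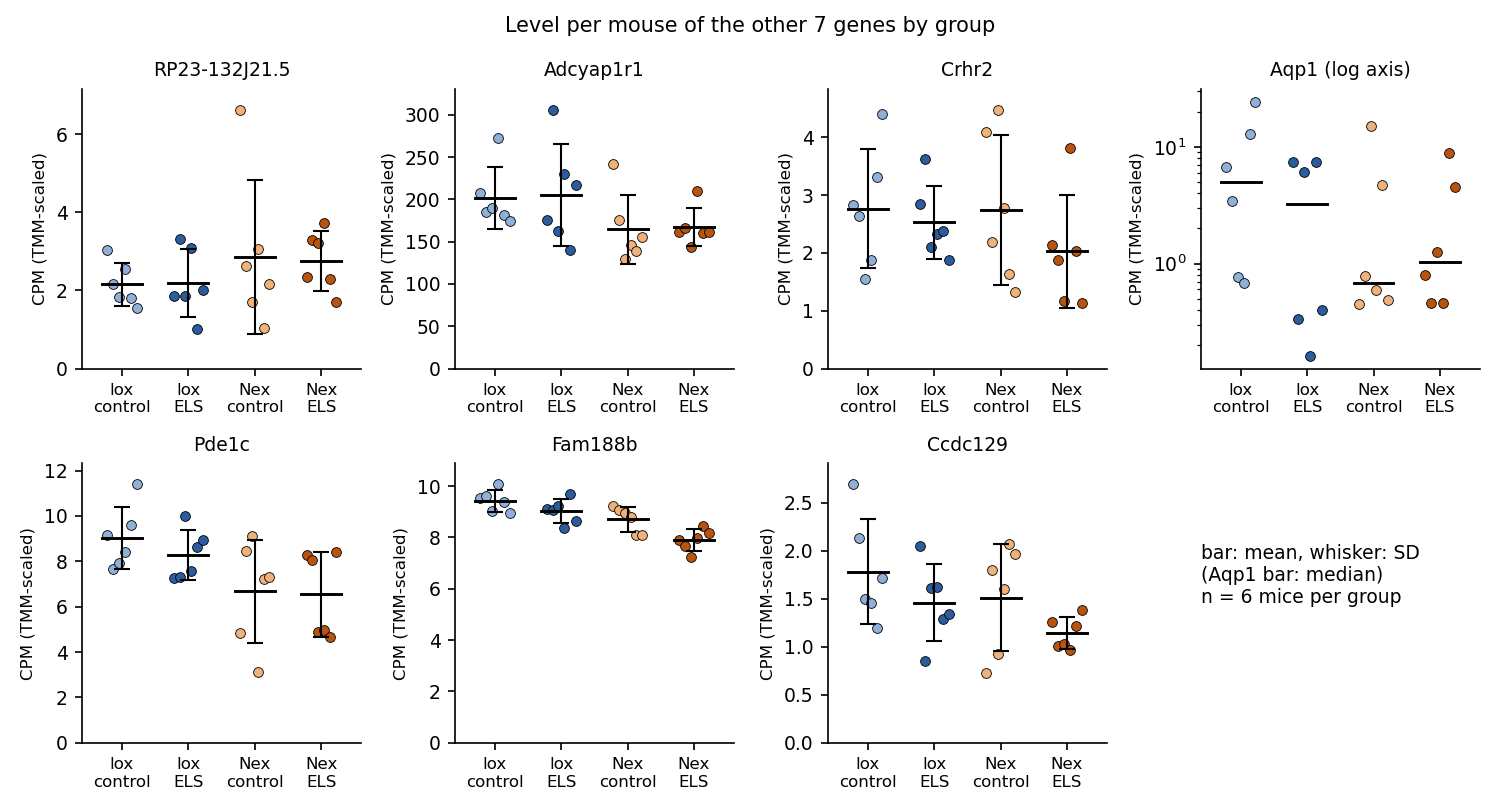
Levels of the other 7 genes in TMM-scaled CPM (vertical axes from 0, logarithmic for Aqp1) for each mouse by group, with the mean and SD of 6 mice, or the median for Aqp1. The genotypes overlap in every panel. Fam188b has the narrowest spread, 7.22 to 10.1 CPM over all mice, and Aqp1 the widest, 0.162 to 24.5 CPM.

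Most genes of the locus varied more between mice of one group than a typical gene. The SD of log2 CPM within groups was 2.02 for Aqp1, 0.588 for RP23-132J21.5, 0.555 for Crhr2, 0.518 for Neurod6, 0.458 for RP23-287D23.1, 0.418 for Ccdc129, 0.382 for Pde1c and 0.299 for Adcyap1r1. The median over tested genes was 0.183. RP23-287D23.1, Ccdc129, RP23-132J21.5, Crhr2 and Aqp1 were low, with mean levels above only 10.7% to 25.4% of tested genes. Counting error adds to the SD of log2 values at such levels, and its part was not tested. Fam188b, at 0.0744, varied more than only 3.23% of tested genes.

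The first ELS comparison asked whether the genes differed after ELS in Fkbp5lox/lox mice. By edgeR's quasi-likelihood test 0 of 9 genes were called, and 0.0% of all tested genes, with 786 genes at an unadjusted p below 0.05 (DESeq2's Wald test called 1 gene, which was none of the 9). The median log2 difference of the 9 genes was -0.05, against 0.00 over all genes tested. Neurod6 differed by 0.11 ± 0.23 (SE, 95% interval -0.37 to 0.59, adjusted p = 0.987), and RP23-287D23.1 by -0.50 ± 0.42 (-1.36 to 0.36, adjusted p = 0.97). Its counts of 3 to 16 reads in these mice leave that interval wide.

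Adcyap1r1 was the one gene of the 9 with an unadjusted p below 0.05 in this comparison, with -0.17 ± 0.06 (edgeR, unadjusted p = 0.0124, adjusted p = 0.955). The levels themselves were 201.8 ± 36.4 CPM in controls and 205.3 ± 59.8 CPM after ELS, and without surrogate variables the difference was 0.02, so its sign depended on them. Aqp1 stood at 0.12 ± 0.40 (adjusted p = 0.992) and at -1.17 without them. It passed the low-count filter only through the control-reared groups, so nothing is read from its p here.

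In Fkbp5Nex mice ELS again called 0 of 9 genes in edgeR's test, and 0.0% of all tested genes (452 genes at an unadjusted p below 0.05, and 0 by DESeq2). The median log2 difference was 0.01 for the 9 genes and 0.00 over all. Neurod6 differed by -0.26 ± 0.23 (SE, 95% interval -0.74 to 0.23, adjusted p = 1). Its medians, 159.0 and 152.5 CPM, were close, and the lower mean after ELS rested on mice 58 and 62, at 68.0 and 51.5 CPM. Without mouse 62 the difference was -0.03, and without mouse 58 it was -0.15. In this comparison 3 genes had an unadjusted p below 0.05 and an adjusted p of 1. RP23-287D23.1 was at 0.59 ± 0.25 (unadjusted p = 0.0294), with 4 of 6 ELS mice above every control. Ccdc129 was at -0.55 ± 0.22 (unadjusted p = 0.0188), from a mean of 1.51 ± 0.559 to 1.14 ± 0.166 CPM. Aqp1 was at 1.05 ± 0.46 (unadjusted p = 0.033), which became -0.43 without surrogate variables, and its control mean of 3.68 ± 5.80 CPM was above the ELS mean of 2.72 ± 3.37 CPM. Aqp1 passed the low-count filter only through the control-reared groups, the control side of this comparison. Nothing is therefore read from its p.

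The interaction, the ELS difference in Fkbp5lox/lox minus that in Fkbp5Nex mice, asked whether ELS acted differently in the genotypes. It called 0 of 9 genes in edgeR's test, and 0.0% of all tested genes, with 654 genes at an unadjusted p below 0.05 and 0 called by DESeq2. The median over the 9 genes was -0.08, against -0.00 over all. RP23-287D23.1 was at -1.09 ± 0.46 (95% interval -2.05 to -0.13, unadjusted p = 0.0276, adjusted p = 1), from opposite signs in the genotypes. Adcyap1r1 was at -0.18 ± 0.08 (unadjusted p = 0.0379, adjusted p = 1) and at 0.00 without surrogate variables. Neurod6 was at 0.37 ± 0.32 (-0.29 to 1.02, adjusted p = 1). Averaged over both genotypes, ELS called 0 of 9 genes and 0.0% of all tested genes (575 genes at an unadjusted p below 0.05, 0 called by DESeq2), and 0 of the 9 genes had an unadjusted p below 0.05. Of the 5 other tested neighbours, 0 were called in any of these ELS comparisons.

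**Figure D4:**
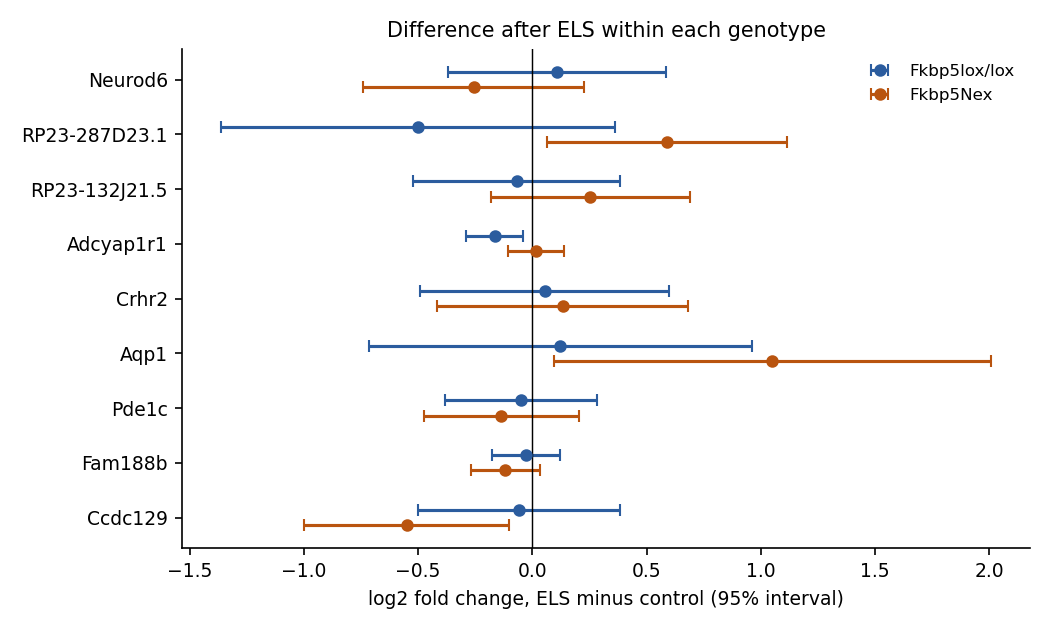
Log2 fold change of ELS against control rearing (horizontal axis) with its 95% interval from edgeR for the 9 genes, in Fkbp5lox/lox (blue) and Fkbp5Nex mice (orange). Of 18 intervals, 4 do not reach 0 (Adcyap1r1 in Fkbp5lox/lox, and RP23-287D23.1, Ccdc129 and Aqp1 in Fkbp5Nex mice), and none of these differences passed the adjusted threshold. Aqp1 passed the low-count filter only through the control-reared groups, so nothing is read from its intervals.

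The relatives of these genes in their pathways were counted in the same fits. Of 17 other proneural helix-loop-helix factors and E proteins, the partners with which Neurod factors bind DNA, 12 were tested and 0 were called higher or lower for genotype over both conditions, with 9 positive and 3 negative differences and a median of 0.04. Of 23 genes of PACAP, corticotropin-releasing hormone and related peptides and their receptors, 15 were tested and 0 called (7 positive, 8 negative, median -0.03). Of 20 other phosphodiesterases and calmodulins, all 20 were tested and 0 called (7 positive, 13 negative, median -0.04). Of 11 other aquaporins 3 were tested and 0 called, with differences that were all positive and a median of 0.18. Of the relatives of Fam188b and Ccdc129, 4 were tested and 0 called. In both ELS comparisons and in the interaction, 0 genes of these lists were called.

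Across the 24 mice, as deviations from group means and among 15117 genes with a mean of at least 1 CPM, the genes most like Neurod6 were Klk8, which encodes the serine protease neuropsin (r = 0.79, rho = 0.78), Mmd (0.76, 0.73), Mllt11 (0.75, 0.73), 2310002F09Rik (0.75, 0.73) and Lancl2 (0.74, 0.59). The most opposite were Smo, the transducer of hedgehog signals (-0.79, -0.76), Imp4 (-0.74, -0.74) and Supt7l (-0.72, -0.71). This order depended on the measure. By rho Lancl2 ranked 136. After removal of the surrogate variables Klk8, Mmd, Mllt11, 2310002F09Rik and Lancl2 ranked 21, 73, 163, 106 and 17, with r from 0.595 to 0.749. Smo, Imp4 and Supt7l then ranked 15056, 15070 and 15012 of 15117. All mice contributed 1 library each, so shared dissection, depth and library composition enter every such value.

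For the receptor gene Adcyap1r1 the nearest genes were Lrrc16a (r = 0.96, rho = 0.88) and Tiam1, an activator of Rac (0.95, 0.86). For Aqp1 they were F5, coagulation factor V, which is one of the 14 choroid plexus markers (0.98, 0.93), and 1500015O10Rik (0.98, 0.95). For Crhr2 they were Dsg2 (0.81, 0.82) and Dmrta2 (0.81, 0.80), and for Pde1c Pag1 (0.80, 0.72) and Sdad1 (0.80, 0.73). RP23-287D23.1 was nearest to Tyms (0.74, 0.72) and Crcp (0.71, 0.68), RP23-132J21.5 to Gm10605 (0.90, 0.86) and Ccdc112 (0.89, 0.90), Ccdc129 to Krt73 (0.78, 0.76) and Sema3e (0.75, 0.72), and Fam188b to Pcdhb18 (0.68, 0.57) and Mfsd2b (0.67, 0.69). After removal of the surrogate variables r fell for most of these genes, to 0.13 for Sema3e and 0.41 for Krt73, but was 0.84 for Sdad1 and 0.94 for F5.

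Within the locus, RP23-132J21.5 and Adcyap1r1, whose starts are neighbours, moved together (r = 0.77, rho = 0.70, and 0.19 after removal of the surrogate variables), and Adcyap1r1 moved opposite to Aqp1 (r = -0.69, rho = -0.76, and 0.22 after removal). Other pairs rose on removal, Neurod6 with Pde1c (r = 0.36, rho = 0.35, and 0.82 after removal) and Fam188b with Aqp1 (r = 0.24, rho = 0.24, and 0.64). Aqp1 followed the 7 tested choroid plexus markers (r = 0.97, rho = 0.94, and r = 0.97 without the 2 farthest mice) while Adcyap1r1 ran against them (r = -0.75, rho = -0.79, r = -0.74), as did RP23-132J21.5 (r = -0.721, rho = -0.795, r = -0.715). The part of these markers in the relations within the locus was not tested.

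**Figure D5:**
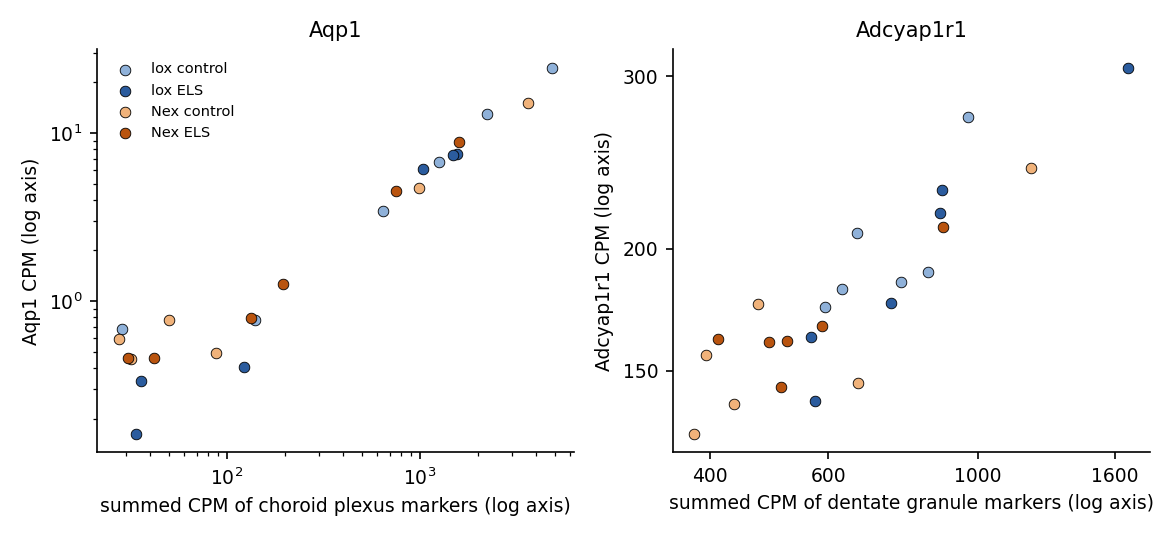
Aqp1 level against the summed level of 14 choroid plexus markers, and Adcyap1r1 level against the summed level of 12 dentate granule markers, in TMM-scaled CPM on logarithmic axes, with 1 point per mouse coloured by group. Aqp1 rises with the marker sum from 0.162 to 24.5 CPM while the sum runs from 27.5 to 4871 CPM, and Adcyap1r1 runs from 129.3 to 306.2 CPM while the dentate sum runs from 379.5 to 1674 CPM.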

How the data were processed

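Hippocampal mRNA of 24 female mice was sequenced. The authors cleaned the reads, aligned them with HISAT2 2.0.5, counted them with featureCounts 1.5.0-p3 and deposited the unnormalized counts of each gene. The genome build, annotation and strandedness are not given in the sources used here. Positions come from GENCODE vM21 by Ensembl identifier (46488 of 46983 genes matched), and promoter windows from RefSeq, matched by current symbol for 9 of 9 genes.

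The test covered the 16209 genes for which some group had 10 or more reads in each of its mice. TMM scaling and edgeR 4.0.16 (R 4.3.3) were used, in a model of 4 group means plus 5 surrogate variables from svaseq (sva 3.50.0), by the quasi-likelihood test with Benjamini-Hochberg adjustment over all genes at an FDR of 0.02. The groups explained 2.98% to 24.1% of the variance of each surrogate variable. For svaseq, 3 inputs were tried. Antilogged TMM log2 CPM, TMM-scaled counts and raw counts gave 19, 22 and 10 genes called for genotype over both rearing conditions. The first was kept after these calls were seen, because 19 was the number an earlier analysis of the same counts had given, so the calls are not independent of that choice. The other inputs are given as alternatives. The study used DESeq2, run here (1.42.0) as an alternative. The fit was also run on simulated counts, in which 0 surrogate variables were found, so their estimation was not tried there. For genotype over both rearing conditions it called 92 of 100 genes changed by a log2 of 1. Of 100 changed by 0.5 it called 64, and 4 calls were false. Descriptions were made in Python 3.11.15 (pandas 2.3.3, scipy 1.17.1, matplotlib 3.10.9). Poisson intervals cover counting error only.

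The members and lists were chosen with earlier results of these data known. Named are the 9 genes, Fkbp5, the 5 genes most like and 3 least like Neurod6, the 2 most like each other gene, and list genes past the threshold. Inmt, Nod1 and the other tested neighbours are named for comparison. Each mouse is 1 sample of its group, and no sequencing batch is given, so no value was recomputed within batches. A permutation test for members under the filter was planned and not needed, since all passed.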

Additional observations from a re-analysis of the deposited data

Results flagged for a closer look

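Among 36 sets of 6 mice (9 genes in 4 groups), 5 held a mouse whose gap to the nearest other was above Dixon's critical share of the range, 0.625. That share is set for values with a normal spread, and the gaps were taken on CPM without logs. The count of 5 is therefore not set against a rate from chance, and nothing is read from it. RP23-132J21.5 was at 6.63 CPM (146 reads) in mouse 12 of the Fkbp5Nex controls, against 1.04 to 3.06 CPM in the other 5. Adcyap1r1 was at 272.6 CPM in mouse 44 of the Fkbp5lox/lox controls (others 174.4 to 207.5) and at 210.5 CPM in mouse 60 of the Fkbp5Nex ELS group (others 144.3 to 166.7). Mouse 60 was also highest in its group for Crhr2, at 3.82 CPM against 1.13 to 2.13. Aqp1 was at 15.0 CPM (292 reads) in mouse 42 of the Fkbp5Nex controls, against 0.454 to 4.73 CPM. The summed dentate granule markers of mice 12, 44 and 60 were each the highest of their group, at 1200, 968.2 and 887.2 CPM, as were their summed astrocyte markers, at 8977, 5958 and 6070 CPM, while their summed oligodendrocyte markers were the lowest of their groups, at 1633, 1554 and 2203 CPM. In mice 12, 44 and 60 the summed CA2 and CA3 pyramidal markers were also the lowest of their groups, at 1177, 1169 and 1856 CPM. The summed choroid plexus markers of mouse 42 were the highest of its group, at 3634 CPM. The part of these marker levels in the outlying values was not tested.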

How the results depend on the processing

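No paired analysis was possible, because the labels used here give no litter and mouse numbers are not shared between groups. The paper assigned dams with their litters to ELS or control rearing, and the genotypes were littermates. The tests treated mice as independent, so any effect of litter cannot be told apart from ELS. With DESeq2's size factors or filterByExpr, no result of the 9 genes changed sign or its side of the threshold. Counts of genes called for genotype, 8, 2 and 19 in controls, after ELS and over both, were 54, 4 and 69 by DESeq2's Wald test, 29, 2 and 51 at an FDR of 0.05, 23, 2 and 35 without a filter, and 2, 2 and 3 without surrogate variables. Leaving out 1 mouse at a time gave from 1 to 14 in controls and from 2 to 29 over both, both lowest without mouse 12. Of the 9 genes, 2 were called in controls by DESeq2 and with only the 12 mice compared, 1 over both without surrogate variables, and, with 1 mouse left out, 0 to 1 in controls and 1 to 2 over both. ELS called 0 of 9 under every alternative run. None of the ELS and interaction differences that changed sign had passed the threshold. Both other inputs to svaseq were tried before one was picked by its calls, so they were chosen after seeing the data. TMM-scaled counts gave 12, 2 and 22 genes called for genotype and 2 of the 9 over both, and no result of the 9 changed. Raw counts gave 2, 2 and 10, only RP23-287D23.1 (1 of the 9) was called over both, and the ELS difference became -0.089 for Neurod6 and -0.040 for Aqp1 in Fkbp5lox/lox and -0.019 for Adcyap1r1 in Fkbp5Nex mice, with 0.19 for Crhr2 in the interaction. Without surrogate variables, log2 differences of ELS in Fkbp5lox/lox became -0.014 for Neurod6, 0.023 for RP23-132J21.5, 0.025 for Adcyap1r1, -0.13 for Crhr2 and -1.17 for Aqp1. In Fkbp5Nex mice they became -0.064 for RP23-132J21.5, -0.44 for Crhr2 and -0.43 for Aqp1, and in the interaction 0.087 for RP23-132J21.5, 0.00010 for Adcyap1r1, -0.10 for Pde1c and 0.31 for Crhr2. With only the 12 mice compared, Crhr2 stood at -0.14 and Aqp1 at -0.19 in Fkbp5lox/lox, and at -0.41 and -0.10 in Fkbp5Nex mice, and DESeq2 gave -0.14 for Aqp1 in Fkbp5lox/lox. With 1 mouse left out, ELS in Fkbp5lox/lox ranged from -0.24 to 0.13 for RP23-132J21.5, -0.25 to 0.10 for Ccdc129, -0.062 to 0.018 for Fam188b, -0.14 to 0.0093 for Pde1c, -0.022 to 0.26 for Crhr2 and -0.31 to 0.31 for Aqp1. In Fkbp5Nex mice it ranged from -0.013 to 0.077 for Adcyap1r1, -0.24 to 0.020 for Pde1c and -0.15 to 0.42 for Crhr2, and the interaction from -0.049 to 0.23 for Pde1c and -0.33 to 0.38 for Crhr2. The cause of these changes was not tested. Group levels on plain CPM or DESeq2 size factors moved by less than 1 SD. At this depth the 3 to 16 reads of RP23-287D23.1 in Fkbp5lox/lox mice limit any statement on ELS there.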
